A study of Mus musculus with 18 samples.

Results

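The PGC-1 coactivators, the estrogen-related receptors (ERRs), the peroxisome proliferator-activated receptors (PPARs) and the mitochondrial regulators NRF1 and TFAM were followed through adult life in mouse gastrocnemius, a calf muscle. They were represented by 9 genes of the 13255 gene symbols that the array named with a probeset of their own: Ppargc1a, Ppargc1b, Esrra, Esrrb, Esrrg, Ppara, Ppard, Tfam and Nrf1. A gene was taken with the brightest probeset that carried its symbol alone. Each of the 9 had exactly 1 such probeset, so none could be checked against a second one.

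Muscle from both legs of male C57BL/6 mice was profiled at 2, 11 and 25 months of age, with 6 biological replicates per age and 1 Affymetrix whole-transcript array each, 18 arrays in all. No genotype or treatment differed between the ages. The deposited values are linear intensities, given here as log2 units; a difference of 1 log2 unit is a 2-fold change in signal. Because probes differ in efficiency, levels are compared between ages for a gene and not between genes.

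PGC-1alpha and PGC-1beta bind no DNA themselves. They dock on transcription factors and recruit the enzymes that open chromatin, and in muscle they are known for driving mitochondrial growth. ERRs and PPARs are nuclear receptors that bring these coactivators to genes of respiration and of fatty acid use, while NRF1 switches on respiratory chain genes and Tfam, whose protein packages and transcribes mitochondrial DNA.

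The regulators that passed the test between ages were Esrrb and Ppard. Esrrb was higher at 11 and at 25 months than at 2 months. Ppard was lower at 25 than at 2 months, a call lost in 14 of 30 alternative analyses. The other 7 genes passed limma's moderated test (Benjamini-Hochberg adjusted p under 0.05) in no comparison. Of the 9 genes, 1 rose and 0 fell at 11 against 2 months, where 19.1% of all 15300 probesets were called and 11.9% were called higher. For 25 against 2 months 1 rose and 1 fell, against 17.4% of all probesets called, 10.5% higher and 6.95% lower. For 25 against 11 months 0 of 9 were called by limma and 0 by the methods' one-way test, against 0.150% of all probesets called. Limma's unadjusted p was under 0.05 for 1 of the 9 there, beside 1591 of the 15300 probesets. It was under 0.05 for 3 of the 9 at 11 against 2 months, beside 5482 probesets. At 25 against 2 months this held for 4 of the 9, beside 4592 probesets. Over the 3 ages together, limma's moderated F called 1 of the 9, Esrrb, against 19.2% of all probesets.

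Sizes of change can be set beside those of the whole array. The median size of the 9 log2 changes was 0.10 for 11 against 2 months, where all probesets had a median size of 0.11. For 25 against 11 months it was 0.03 for the 9 genes and 0.06 for all probesets, and for 25 against 2 months 0.10 for the 9 genes and 0.09 for all probesets. These are array intensities of whole muscle, in which fewer cells of a type and less RNA per cell cannot be told apart.

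**Figure D1:**
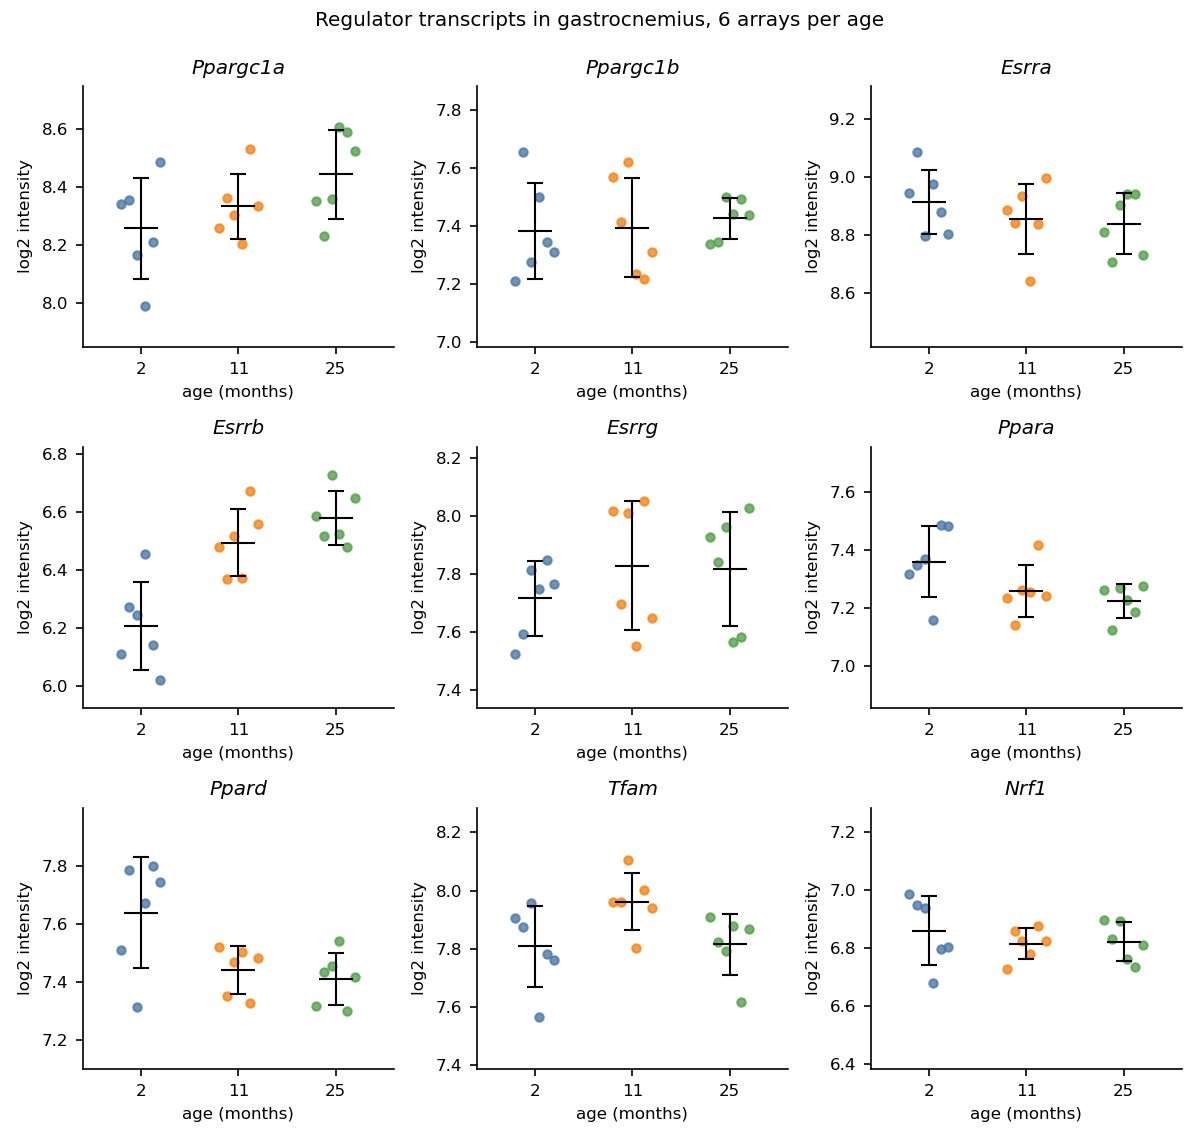
Log2 intensity of the 9 regulator genes (vertical axis, log2 units) at 2, 11 and 25 months (horizontal axis). The vertical axis is centred per gene and spans the same number of log2 units in every panel. Each point is 1 array, the long bar is the mean and the short bars are 1 SD over 6 arrays. All 6 arrays of 25 months lie above the 2-month arrays for Esrrb, and in the other panels the ages overlap.

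Ppargc1a encodes PGC-1alpha, the coactivator induced by contraction. At 2 months its signal had a lowest value of 7.99, a median of 8.27 and a highest value of 8.49. At 11 months these were 8.20, 8.32 and 8.53, and at 25 months 8.23, 8.44 and 8.61. The 3 ages overlapped, and 3 of the 6 arrays of 25 months lay above the highest 2-month array. The mean was 8.44 ± 0.15 at 25 months and 8.26 ± 0.17 at 2 months (SD, n = 6 each), a log2 change of 0.19 ± 0.08 (SE) that did not pass (adjusted p = 0.126; two-sided exact permutation p = 0.0714). Its 95% interval ran from 0.02 to 0.35.

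Ppargc1b encodes PGC-1beta, a close relative with overlapping targets. It had flatter means, with 7.38 ± 0.17 log2 units for 2-month muscle, 7.39 ± 0.17 for 11-month muscle and 7.43 ± 0.07 for 25-month muscle (SD, n = 6 each). Its arrays ran from 7.21 to 7.65 at 2 months, from 7.22 to 7.62 at 11 months and from 7.34 to 7.50 at 25 months. The 25-month arrays lay inside the span of the 2-month arrays. The log2 change from that comparison was 0.04 ± 0.08 (SE; adjusted p = 0.753), and the 95% interval of the fold, 0.920 to 1.15, bounds how much it could have moved.

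Esrrb encodes ERRbeta, an orphan receptor best known from mouse trophoblast and embryonic stem cells. Its signal, from probeset 6796728, sat near the middle of the array, brighter than 45.3% of probesets on average. At 2 months the lowest, median and highest values were 6.02, 6.19 and 6.45. At 11 months they were 6.37, 6.50 and 6.67, and at 25 months 6.48, 6.56 and 6.73. Every array of 25 months was therefore above every array of 2 months, a separation seen in 7.23% of all probesets in that comparison, whereas 4 of the 6 arrays of 11 months lay above the highest 2-month array.

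The mean of Esrrb was 6.58 ± 0.09 at 25 months, against 6.21 ± 0.15 at 2 months (SD, n = 6 each). This 1.30-fold rise, 0.37 ± 0.07 on the log2 scale (SE), passed with an adjusted p = 8.23e-04. The exact permutation p of 0.00216 is the smallest that 6 against 6 arrays can give. A log2 change of larger size was seen in 4.29% of all probesets. At 11 months the mean was 6.49 ± 0.12, a 1.22-fold rise over 2 months (log2 change 0.29 ± 0.07, SE; adjusted p = 0.00740). From 11 to 25 months the log2 change was 0.09 ± 0.07 (SE; adjusted p = 0.698), with arrays that overlapped. The 25-month rise passed under all 30 alternatives tried, with adjusted p from 1.50e-04 to 0.00491. The 11-month rise passed in 29 of 30 and ended with array signal range added to the model (adjusted p = 0.0567). That range, the spread between the quartiles of all log2 values on an array, had a lowest, median and highest value of 2.03, 2.19 and 2.35 at 2 months, 2.25, 2.30 and 2.45 at 11 months and 2.13, 2.28 and 2.37 at 25 months.

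Because Esrrb was the regulator with the clearest change, the sequence just upstream of its transcript starts is shown. RefSeq (GRCm38.p6) gives 2 starts on the plus strand of chromosome 12. The windows below, chr12:86360867-86361166 and chr12:86421394-86421693, run 5′ to 3′ from 250 bases before to 50 bases after each start.
Esrrb start 1: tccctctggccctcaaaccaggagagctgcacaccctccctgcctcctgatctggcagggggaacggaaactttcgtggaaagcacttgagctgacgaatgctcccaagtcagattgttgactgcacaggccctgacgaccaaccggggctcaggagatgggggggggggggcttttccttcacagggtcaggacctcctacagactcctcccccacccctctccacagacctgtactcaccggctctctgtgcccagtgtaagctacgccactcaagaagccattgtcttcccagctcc
Esrrb start 2: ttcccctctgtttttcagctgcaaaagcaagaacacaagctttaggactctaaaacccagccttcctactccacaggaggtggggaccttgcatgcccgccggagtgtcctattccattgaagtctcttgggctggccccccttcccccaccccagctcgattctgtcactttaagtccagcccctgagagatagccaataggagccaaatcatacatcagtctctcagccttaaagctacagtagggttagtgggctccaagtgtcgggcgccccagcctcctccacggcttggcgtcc
The 2 windows hold 60% and 55.3% G and C, with 7 CpG dinucleotides each. No capitals appear because none of the 5 motifs searched was found on either strand: the ERR site AAGGTCA, the nuclear receptor hexamer AGGTCA that it contains, the NRF1 core GCATGCGC, the cyclic AMP response element TGACGTCA and the ETS core CCGGAAG. Of 32851 promoter windows of the same length, 4.72% hold the ERR site, 16.3% the hexamer, 2.71% the NRF1 core, 1.79% the cyclic AMP response element and 8.86% the ETS core. A match or its lack describes these letters in this window and is not a binding site or a cause.

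Esrra encodes ERRalpha, the main ERR partner of PGC-1alpha at respiratory chain genes. The 2-month mean of 8.91 ± 0.11 was followed by 8.86 ± 0.12 in 11-month muscle and 8.84 ± 0.10 in 25-month muscle (SD, n = 6 each). Single arrays ran from 8.80 to 9.08 at 2 months, from 8.64 to 9.0 at 11 months and from 8.71 to 8.94 at 25 months, so the ages overlapped. For 25 against 2 months the log2 change was -0.07 ± 0.06 (SE; adjusted p = 0.470). The NRF1 core was found once in its window, 34 bases before the start, and is set in capitals in the surrounding 60 bases (chr19:6921809-6921868, minus strand, GRCm38.p6).
Esrra: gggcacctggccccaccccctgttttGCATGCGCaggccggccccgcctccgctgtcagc

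Esrrg encodes ERRgamma, the receptor that in mice is abundant in oxidative muscle. Its arrays were the most scattered of the 9 genes, with a pooled SD within ages of 0.19 log2 units, larger than in 88.5% of probesets. The lowest, median and highest values were 7.52, 7.76 and 7.85 at 2 months, 7.55, 7.85 and 8.05 at 11 months and 7.57, 7.88 and 8.03 at 25 months. The ages overlapped, but at 11 and at 25 months 3 of the 6 arrays lay above the highest 2-month array. Its log2 change for 25 against 2 months was 0.10 ± 0.10 (SE; adjusted p = 0.526), with a 95% interval of the fold from 0.931 to 1.24.

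Ppara encodes PPARalpha, the receptor that turns on fatty acid oxidation in fasting. At 2 months its lowest, median and highest values were 7.16, 7.36 and 7.49. At 11 months they were 7.14, 7.25 and 7.42, and at 25 months 7.12, 7.25 and 7.28. The later means were the lower ones but the arrays overlapped, and 1 of the 6 arrays of 25 months lay below the lowest 2-month array. For 25 against 2 months the log2 change was -0.14 ± 0.06 (SE; adjusted p = 0.107; exact permutation p = 0.0390). It became a call with array weights (adjusted p = 0.0375), with array signal range in the model (0.0359) and without 2 months replicate 4 (0.0259), the array of narrowest signal range.

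The Ppara window holds the NRF1 core on both strands, 31 and 29 bases before the start, in matches that overlap to form 1 palindrome. It is shown in capitals within 60 bases of the plus strand (chr15:85735719-85735778, GRCm38.p6).
Ppara: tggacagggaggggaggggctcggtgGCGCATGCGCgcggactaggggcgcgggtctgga

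Ppard encodes PPARdelta, the PPAR that is most abundant in skeletal muscle and is known for raising fatty acid use and fatigue resistance. It was measured by probeset 6849536. At 2 months the lowest, median and highest values were 7.32, 7.71 and 7.80. At 11 months they were 7.33, 7.47 and 7.52, and at 25 months 7.30, 7.43 and 7.54. The 2-month arrays were the most spread, with 4 of them above every later array and 1 at 7.32 among the lowest of all. Ppard averaged 7.41 ± 0.09 at 25 months and 7.64 ± 0.19 at 2 months (SD, n = 6 each), a 1.17-fold fall with a log2 change of -0.23 ± 0.07 (SE; adjusted p = 0.0345; exact permutation p = 0.0346).

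At 11 months Ppard averaged 7.44 ± 0.08, a log2 change of -0.20 ± 0.07 (SE) against 2 months that did not pass (adjusted p = 0.0622). For 25 against 11 months it was -0.03 ± 0.07 (SE; adjusted p = 0.909). The 25-month call was lost in 14 of 30 alternatives. Among them was the methods' one-way test with Tukey, where the larger of the adjusted F p and the pairwise Tukey p was 0.0781. Others were the fit with only these 2 ages (adjusted p = 0.0697) and array signal range in the model (adjusted p = 0.0855). The call was lost as well without the 3 arrays of narrowest range (adjusted p = 0.226). It was also lost on leaving out any of 2 months replicates 2, 4, 5 and 6 or 25 months replicates 1, 2, 5 and 6, with adjusted p from 0.0552 to 0.0849. The 11-month difference became a call without 2 months replicate 1 (adjusted p = 0.0385) or 3 (adjusted p = 0.00524), after quantile normalization (0.0346) and with array weights (0.0399). The log2 change stayed negative in all of them.

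The Ppard window, chr17:28232504-28232803 on the plus strand (GRCm38.p6), is shown because Ppard was the regulator called lower in the main fit. It has 68.3% G and C and 27 CpG dinucleotides, and none of the 5 motifs was found.
Ppard: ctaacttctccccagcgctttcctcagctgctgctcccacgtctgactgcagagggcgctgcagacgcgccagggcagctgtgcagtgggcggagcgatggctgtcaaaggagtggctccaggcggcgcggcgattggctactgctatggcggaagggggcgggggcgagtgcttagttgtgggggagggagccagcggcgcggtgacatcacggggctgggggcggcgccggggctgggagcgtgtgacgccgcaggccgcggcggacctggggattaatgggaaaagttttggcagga

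Nrf1 encodes nuclear respiratory factor 1. It varied least of the 9 genes, with a pooled SD within ages of 0.08 log2 units, larger than in 19.2% of probesets. The 2-month mean was 6.86 ± 0.12, the 11-month mean 6.82 ± 0.05 and the 25-month mean 6.82 ± 0.07 (SD, n = 6 each), and its arrays ran from 6.68 to 6.99 over the 3 ages. For 25 against 2 months the log2 change was -0.04 ± 0.05 (SE; adjusted p = 0.672), with a 95% interval of the fold from 0.902 to 1.05.

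Tfam encodes the packaging and transcription factor of mitochondrial DNA. Its lowest, median and highest values were 7.56, 7.83 and 7.96 at 2 months, 7.80, 7.96 and 8.10 at 11 months and 7.62, 7.85 and 7.91 at 25 months. The 11-month arrays were the highest on average, with 4 of 6 above the highest 2-month array, but they overlapped both other ages. The log2 change was 0.15 ± 0.07 for 11 against 2 months (SE; adjusted p = 0.103) and -0.15 ± 0.07 for 25 against 11 months (SE; adjusted p = 0.457; unadjusted p = 0.0380). Neither passed. With array signal range in the model the first of these was 0.01 (adjusted p = 0.938) and the second -0.08 (adjusted p = 0.577).

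The Tfam window holds the ETS core once, 47 bases before the start. The motif is set in capitals in the surrounding 60 bases (chr10:71238058-71238117, minus strand, GRCm38.p6).
Tfam: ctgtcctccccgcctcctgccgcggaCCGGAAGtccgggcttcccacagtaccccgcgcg
Across the regulators, RefSeq gave 13 windows for 8 of the 9 genes, with Ppargc1b not among them. The windows of Ppargc1a, Esrrg and Nrf1 held none of the 5 motifs either.

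**Figure D2:**
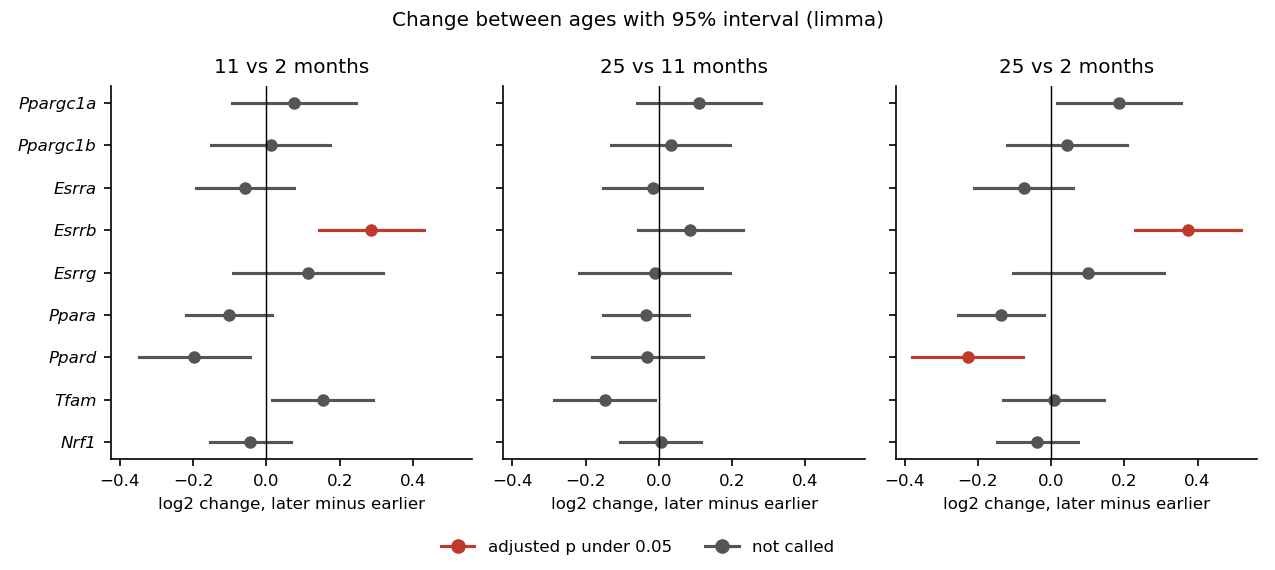
Log2 change, later minus earlier age (horizontal axis, log2 units), of the 9 regulator genes in the 3 comparisons; points are limma estimates, lines are 95% intervals, and red marks an adjusted p under 0.05. Esrrb at 0.29 and 0.37 and Ppard at -0.23 are the calls, and no gene is called for 25 against 11 months.

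Animals of an age could differ in the regulators even where ages did not. Deviations from the age mean were correlated over the 18 arrays for the 36 pairs of genes, with two-sided permutation tests that shuffled arrays within ages. None of the 36 passed after Benjamini-Hochberg adjustment by Pearson's r or by Spearman's rho, and 3 had an unadjusted p under 0.05 for r. The closest pair was Tfam and Nrf1, with r = 0.72 (permutation p = 0.00274, adjusted p = 0.0986) and rho = 0.70 (permutation p = 0.0116, adjusted p = 0.278). Without the 2 arrays farthest from the median of Tfam r was 0.50. Taken age by age, r was 0.94 among the 2-month arrays, 0.35 among the 11-month arrays and 0.52 among the 25-month arrays.

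The signal range of the array moved with this pair. It correlated with Tfam at r = 0.80 (permutation p = 6.70e-04, adjusted p = 0.00302 over 9 relations; rho = 0.72, permutation p = 0.00213, adjusted p = 0.00959) and with Nrf1 at r = 0.78 (permutation p = 3.80e-04, adjusted p = 0.00302; rho = 0.72, permutation p = 0.00109, adjusted p = 0.00959). Without the 2 arrays farthest from the median these were 0.76 and 0.70. With the signal range removed by regression, Tfam and Nrf1 correlated at r = 0.26. The other 7 genes did not pass against the signal range. Ppargc1b and Esrra had r = 0.60 (permutation p = 0.0150, adjusted p = 0.270; rho = 0.56, permutation p = 0.0232, adjusted p = 0.278; 0.46 without the 2 farthest arrays), and with the signal range removed r was 0.60. Ppargc1a and Ppara had r = 0.55 (permutation p = 0.0336, adjusted p = 0.403; rho = 0.32, permutation p = 0.232, adjusted p = 0.765; 0.25 without the 2 farthest arrays).

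**Figure D3:**
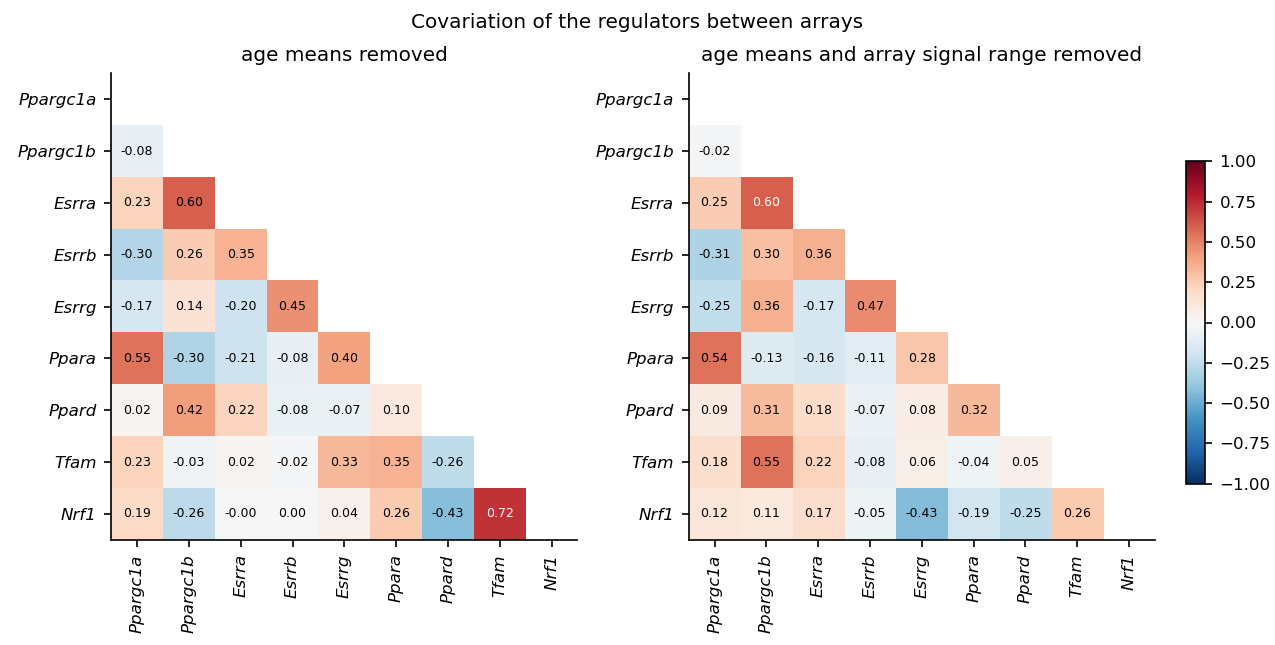
Pearson's r between the regulator genes over 18 arrays, after removing age means (left) and after also removing the array signal range (right); red is positive and blue negative. Tfam and Nrf1 stand at 0.72 on the left and 0.26 on the right, while Ppargc1b and Esrra are at 0.60 in both.

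The genes whose levels ran most like the 2 called regulators were picked by Pearson's r of log2 values over the 18 arrays, among 13591 probesets with 1 symbol. For Esrrb they were Dach2 (r = 0.92), Rab11fip5 (r = 0.90) and Supt5 (r = 0.90). Within ages, where the shared shift between ages is taken out, these were 0.77, 0.69 and 0.66. For Ppard they were Agap1 (r = 0.92), Tmem94 (r = 0.88) and Rnpepl1 (r = 0.88), with 0.86, 0.83 and 0.79 within ages. These values describe likeness only, and the 18 points carry the same differences in signal range.

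Transcripts of the proteins that work with or on the regulators were followed through lists. These were chosen for known roles, but with earlier results of these data known. The called shares of the lists are therefore a description and not an independent test. Of 13 measured co-regulators, 1 rose and 1 fell at 11 against 2 months, and 2 rose and 2 fell at 25 against 2 months. That is 15.4% and 30.8% called, beside 19.1% and 17.4% of all probesets. The median log2 change at 25 against 2 months was 0.0005, where all probesets had -0.01. Mybbp1a, a nuclear protein that represses PGC-1alpha, rose 1.23-fold at 11 months (log2 change 0.30 ± 0.06, SE; adjusted p = 0.00155) and 1.21-fold at 25 months (adjusted p = 0.00245). The acetyltransferase Kat2a (GCN5), which inhibits PGC-1alpha by acetylation, fell 1.2-fold at 25 months (log2 change -0.26 ± 0.05, SE; adjusted p = 0.00184). Its 1.13-fold fall at 11 months (adjusted p = 0.0284) was lost on leaving out any of 2 months replicates 2, 4 and 6 or 11 months replicates 2 and 5 (adjusted p 0.0579 to 0.0667), with only the 2 ages in the fit (0.0587) and without the 3 arrays of narrowest signal range (0.173). With array signal range in the model its log2 change was -0.11 (adjusted p = 0.289). Sirt1, the deacetylase that reverses that mark, rose 1.15-fold at 25 months (adjusted p = 0.0128). Lpin1, a lipid phosphatase that also coactivates PPARalpha in mouse liver, fell 1.21-fold at 25 months (adjusted p = 0.00349). At 11 months leaving out 1 array gave 1 to 4 co-regulators higher, the 4 on removal of 2 months replicate 1 and 3 on removal of either 11 months replicate 1 or 2.

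Among 17 partner transcription factors, 5 rose and 0 fell at 11 against 2 months, and 5 rose and 1 fell at 25 against 2 months. That is 29.4% and 35.3% called, beside 19.1% and 17.4% of all probesets. The median log2 changes were 0.07 and -0.01. The muscle factors Mef2a and Mef2c, which bind the Ppargc1a promoter, were among the risers. Mef2a averaged 10.15 ± 0.03 at 25 months and 9.79 ± 0.14 at 2 months (SD, n = 6 each; 1.29-fold, adjusted p = 1.42e-04), with no overlap of arrays. It was already 1.23-fold higher at 11 months (adjusted p = 0.00141). Mef2c averaged 11.48 ± 0.09 at 25 months and 11.19 ± 0.03 at 2 months (1.22-fold, adjusted p = 1.09e-04), also without overlap. Atf2, a factor that acts on Ppargc1a downstream of p38 kinase, rose 1.22-fold at 11 months (adjusted p = 0.00398) and 1.24-fold at 25 months (adjusted p = 0.00190). Its 11-month call was lost with array signal range in the model (log2 change 0.16, adjusted p = 0.0921). The thyroid hormone receptor Thrb rose 1.2-fold at 11 months (adjusted p = 0.0196). That call was lost with array signal range in the model (adjusted p = 0.302), without the 3 arrays of narrowest range (0.116) and with only the 2 ages in the fit (0.0530). At 25 months Thrb was 1.24-fold above 2 months (adjusted p = 0.00737), a call not recomputed under the alternatives. Gabpb2, a subunit of the nuclear respiratory factor GABP, was the partner that fell, by 1.12-fold at 25 months (adjusted p = 0.0144). The count of partners higher at 11 months was 1 with array signal range in the model, 2 without the 3 arrays of narrowest range, and 3 without 11 months replicate 3 or 5.

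Among the kinases and phosphatases upstream of PGC-1alpha, Camk2b and Map2k3 changed more than any of the 9 regulators against 2 months, at both later ages. Of 19 measured, 4 rose and 2 fell at 11 against 2 months and 5 rose and 2 fell at 25 against 2 months. That is 31.6% and 36.8% called, beside 19.1% and 17.4% of all probesets. Median log2 changes were 0.03 and 0.02. Camk2b, a subunit of the calcium-activated kinase CaMKII, averaged 9.76 ± 0.14 at 25 months and 8.96 ± 0.18 at 2 months (SD, n = 6 each), a 1.73-fold rise (log2 change 0.79 ± 0.08, SE; adjusted p = 5.84e-07). At 11 months it stood at 9.47 ± 0.06, 1.42-fold above 2 months (adjusted p = 1.62e-04). In the other direction Map2k3, a kinase that activates p38, averaged 9.36 ± 0.07 at 25 months and 10.04 ± 0.17 at 2 months, a 1.61-fold fall (log2 change -0.69 ± 0.07, SE; adjusted p = 1.34e-06), and was 1.5-fold lower at 11 months (adjusted p = 1.61e-05).

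Subunits of AMPK, the energy-sensing kinase, and of calcineurin, the calcium-activated phosphatase, also moved. Prkag3, a regulatory AMPK subunit of fast muscle, rose 1.32-fold at 25 months (adjusted p = 4.94e-04), and the catalytic subunit Prkaa2 rose 1.16-fold at 11 months (adjusted p = 0.00711). The 11-month Prkaa2 call was lost after quantile normalization (adjusted p = 0.0789), with array signal range in the model (0.103) and without the 3 arrays of narrowest range (0.0596). At 25 months Prkaa2 was 1.17-fold above 2 months without overlap of arrays (adjusted p = 0.00351), a call not recomputed under the alternatives. Ppp3cb, a catalytic calcineurin subunit, rose 1.18-fold at 11 months (adjusted p = 0.00848) and 1.2-fold at 25 months (adjusted p = 0.00303). Rcan1, an inhibitor of calcineurin, fell 1.37-fold at 11 months (adjusted p = 0.0138) and 1.52-fold at 25 months (log2 change -0.61 ± 0.12, SE; adjusted p = 0.00173). At 11 months 1 of the 19 was called higher with array signal range in the model, which ended the call of Ppp3cb (adjusted p = 0.186). Without the 3 arrays of narrowest range 2 were called higher and 1 lower, and Rcan1 was not called at 11 months (adjusted p = 0.0513).

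Genes that copy and transcribe mitochondrial DNA beside Tfam were called in both directions. Of 18 measured, 2 rose and 1 fell at 11 against 2 months, and 3 rose and 1 fell at 25 against 2 months. The called shares, 16.7% and 22.2%, were near the 19.1% and 17.4% of all probesets. Median log2 changes were 0.05 and 0.03. Polg, the catalytic subunit of the mitochondrial DNA polymerase, averaged 7.57 ± 0.05 at 25 months and 7.81 ± 0.06 at 2 months (SD, n = 6 each), a 1.17-fold fall without overlap (adjusted p = 5.50e-04), and was 1.16-fold lower at 11 months (adjusted p = 0.00154). Tfb2m, which opens mitochondrial promoters together with Tfam, rose 1.24-fold at 11 months (adjusted p = 0.00326) and 1.17-fold at 25 months (adjusted p = 0.0190). With array signal range in the model the 11-month log2 change was 0.20 and that call was lost (adjusted p = 0.0800). The 25-month call was lost without 2 months replicate 2 or 25 months replicate 1 (adjusted p 0.0500 and 0.0540) and without the 3 arrays of narrowest range (0.0761). Tk2, the mitochondrial thymidine kinase, rose 1.14-fold at 11 months (adjusted p = 0.00848) and 1.13-fold at 25 months (adjusted p = 0.0157). Tfb1m, which methylates mitochondrial ribosomal RNA, was called 1.17-fold higher at 25 months (adjusted p = 0.0485). This call was lost in 18 of 30 alternatives, among them leaving out any 1 of 12 of the 18 arrays (adjusted p up to 0.110). Others were the one-way test with Tukey (0.106), array weights (adjusted p = 0.0766) and the replicate block (0.0677). It was lost too with array signal range in the model (0.125) and without the 3 arrays of narrowest range (0.235). The count of these genes higher at 25 months was 1 without 2 months replicate 2, 25 months replicate 1 or the 3 arrays of narrowest range, and the count higher at 11 months was 4 without 2 months replicate 1.

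PPAR targets of fatty acid handling were called in both directions at 25 months. Of 22 measured, 5 rose and 0 fell at 11 against 2 months (22.7% called, beside 19.1% of all probesets). The median log2 change was 0.16 where all probesets had -0.02. At 25 against 2 months 5 rose and 3 fell (36.4% called, beside 17.4% of all probesets), with a median of 0.08. Enzymes of the oxidation pathway were among the risers. Acot2, a mitochondrial thioesterase, averaged 9.24 ± 0.17 at 11 months and 8.62 ± 0.14 at 2 months (SD, n = 6 each; 1.54-fold, adjusted p = 8.72e-05) and was 1.32-fold above 2 months at 25 months (adjusted p = 0.00261). Acadm, the medium-chain acyl-CoA dehydrogenase, rose by a log2 change of 0.32 at 11 months (adjusted p = 0.00121) and 1.26-fold at 25 months (adjusted p = 5.56e-04). Hadhb, a subunit of the trifunctional protein, rose 1.34-fold at both ages (adjusted p = 0.00222 at 11 months and 0.00178 at 25 months). With array signal range in the model its 11-month log2 change was 0.23 and the call was lost (adjusted p = 0.0573). At 11 months the count of PPAR targets called higher was 3 in that model, 9 without 2 months replicate 3 and 10 without 11 months replicate 4. At 25 months leaving out 1 array gave 3 to 8 higher and 1 to 3 lower; 3 were higher on leaving out any 1 of 2 months replicates 5 and 6 or 25 months replicates 1, 2, 3 and 6, 8 were higher without 25 months replicate 5, and 1 was lower on leaving out any 1 of 2 months replicates 4, 5 and 6 or 25 months replicates 2, 4 and 5.

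The PPAR targets that fell at 25 months included genes that fasting is known to induce. Ucp3, an uncoupling protein of muscle, averaged 8.65 ± 0.19 at 25 months and 9.37 ± 0.51 at 2 months (SD, n = 6 each), a 1.64-fold fall (adjusted p = 0.0167). Pdk4, the kinase that shuts off pyruvate dehydrogenase, fell 1.49-fold (log2 change -0.58 ± 0.18, SE; adjusted p = 0.0341). Its call was lost without any of 2 months replicates 4, 5 and 6 or 25 months replicates 2, 4 and 5 (adjusted p 0.0616 to 0.0892). Cpt2, a carnitine palmitoyltransferase, fell 1.14-fold (adjusted p = 0.0471), a call lost on leaving out any 1 of 12 arrays (adjusted p up to 0.10). The methods' one-way test with Tukey called 0 of the 22 lower, as did the fit without the 3 arrays of narrowest signal range.

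PGC-1 and ERR targets of oxidative metabolism showed 4 rises and 1 fall among 30 at 11 against 2 months. At 25 against 2 months there were 2 rises and 5 falls. The called shares, 16.7% and 23.3%, stood beside 19.1% and 17.4% of all probesets. Median log2 changes were 0.02 and -0.02. Myoglobin (Mb), the oxygen store of muscle, averaged 13.17 ± 0.13 at 11 months and 12.88 ± 0.14 at 2 months (SD, n = 6 each; 1.22-fold, adjusted p = 0.00835), and 13.06 ± 0.12 at 25 months, where it did not pass against 2 months (adjusted p = 0.0839). The kynurenine aminotransferases Kyat3 and Kyat1 rose 1.26-fold and 1.2-fold at 11 months (adjusted p = 0.00788 and 0.00934), calls that ended with array signal range in the model (adjusted p = 0.152 and 0.203). Kyat3 was also called at 25 months (1.2-fold, adjusted p = 0.0354), and that call was lost without any 1 of 7 arrays (adjusted p up to 0.0937). Array signal range in the model ended it too (adjusted p = 0.0962). So did the fit with only the 2 ages (0.0587) and the one without the 3 arrays of narrowest range (0.0688).

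Cox5a, a subunit of cytochrome c oxidase, averaged 9.74 ± 0.13 at 25 months and 10.09 ± 0.05 at 2 months (SD, n = 6 each), a 1.27-fold fall without overlap (adjusted p = 0.00116). Vegfa, the vessel growth factor that PGC-1alpha induces, fell 1.21-fold at 25 months, also without overlap (adjusted p = 0.00315). Cox4i1, another cytochrome c oxidase subunit, fell 1.17-fold (adjusted p = 0.0410), a call lost without any 1 of 10 arrays (adjusted p up to 0.10). That call was lost too with the one-way test with Tukey (0.124) and without the 3 arrays of narrowest signal range (adjusted p = 0.146). Mfn2, a mitochondrial fusion protein, rose 1.11-fold at 11 months (adjusted p = 0.0121) and 1.10-fold at 25 months (adjusted p = 0.0194). The later of these calls was lost after quantile normalization (adjusted p = 0.104) and without the 3 arrays of narrowest signal range (0.0774). Opa1, a fusion protein of the inner mitochondrial membrane, fell 1.13-fold at both ages (adjusted p = 0.0374 at 11 months and 0.0444 at 25 months). Its 11-month call was lost with only these 2 ages in the fit (adjusted p = 0.0708) and without any 1 of 7 arrays (adjusted p up to 0.0903). The 25-month call of Opa1 and the 11-month call of Mfn2 were not recomputed under the alternatives. Mfn1, another fusion gene, had log2 changes of 0.02 and -0.02 at 11 and 25 months against 2 months (adjusted p = 0.891 and 0.880). At 25 against 2 months quantile normalization gave 1 rise and 8 falls among the 30, and leaving out 1 array gave 1 to 3 rises and 2 to 6 falls, with 2 falls without 2 months replicate 5 or 25 months replicate 2 or 3. At 11 against 2 months the fit with array signal range called 1 of the 30 higher, and leaving out 1 array gave 0 to 4 lower, with 4 without 11 months replicate 1.

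Slow fibre genes, a programme that PGC-1alpha and PPARdelta can switch on in mouse muscle, were called in 1 direction. Of 7 measured, 0 were called at 11 against 2 months by limma and 0 by the one-way test with Tukey. There 1 had an unadjusted p under 0.05 in limma, and leaving out 2 months replicates 3 and 4 gave 2 and 1 calls. At 25 against 2 months 5 rose and 0 fell, with a median log2 change of 0.58. That is 71.4% called, beside 17.4% of all probesets. Tnni1, the slow troponin I, averaged 9.76 ± 0.36 at 25 months and 8.85 ± 0.56 at 2 months (SD, n = 6 each; 1.87-fold, adjusted p = 0.00498). Myl2, the slow myosin light chain, rose 1.76-fold (adjusted p = 0.00897) and Casq2, a calcium store protein, 1.51-fold (adjusted p = 0.0162; 0.0532 without the 3 arrays of narrowest signal range). Arrays of the 2 ages overlapped for all 3 genes. The methods' one-way test with Tukey called 1 of the 7. The summed intensity of the 7 genes ran from 5010 to 11882 at 2 months, from 7459 to 11372 at 11 months and from 8368 to 16203 at 25 months. For 25 against 11 months 0 of the 126 genes of these 7 lists were called by limma, against 0.150% of all probesets. Of the 126, 15 had an unadjusted p under 0.05. The one-way test with Tukey, whose pairwise p is not adjusted over all probesets, called 8 of the 126 and limma with array weights 5.

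**Figure D4:**
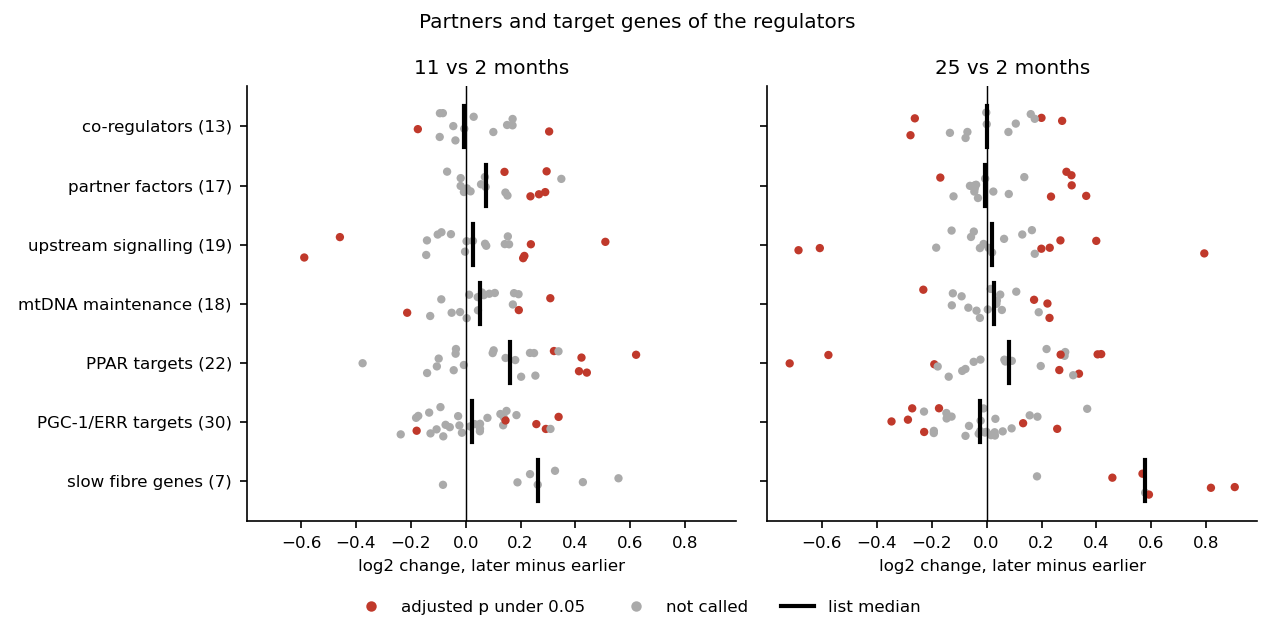
Log2 change, later minus earlier age (horizontal axis, log2 units), of each measured gene in the 7 lists of partners and targets, with the number measured beside each list name; red points passed at an adjusted p under 0.05 and black bars are list medians. Slow fibre genes have a median of 0.58 at 25 against 2 months, and the PPAR targets have called genes on both sides of 0.

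Skeletal muscle fibre markers, fast fibre genes together with Acta1, Ckm and Des, were bright in all ages, with a summed intensity of 96916 to 108050 over 9 genes. Of these 9 markers 1 rose and 3 fell at 11 against 2 months, and 1 rose and 2 fell at 25 against 2 months. The riser was Des at both ages. Mylpf and Casq1 fell at both ages and Tnnt3 at 11 months. Some markers of other cells were called, beside 19.1% of all probesets at 11 and 17.4% at 25 against 2 months. Adipocyte markers had 3 of 6 genes higher at 11 against 2 months, summing to 509 to 1175 at 11 months and 490 to 680 at 2 months, and 0 called at 25 against 2 months (473 to 797 at 25 months; 0 at an unadjusted p under 0.05). The 3 calls at 11 months became 0 with the one-way test with Tukey, with array weights and with array signal range in the model, and 1 with only the 2 ages in the fit or on leaving out any of 2 months replicates 1, 2 and 5 or 11 months replicates 3, 4 and 5. Pparg, the fat cell PPAR, was 1 of the 5 partner factors that rose at 11 months (log2 change 0.24, adjusted p = 0.0392); it is named here after its value was seen. Fibroblast markers had 3 of 5 genes lower at 25 against 2 months, and the 5 summed to 4449 to 5734 at 25 months and 7500 to 11309 at 2 months. The genes called lower were Col1a1 (log2 change -3.02), Col1a2 (-2.38) and Pdgfra (-0.24). Dcn (0.19) and Lum (0.16) lay above 0 and were not called, so the 5 did not move together. Endothelial markers had 3 of 6 lower in that comparison (1809 to 2028 at 25 months and 2006 to 2248 at 2 months), and 1 of 6 without 2 months replicate 5 or the 3 arrays of narrowest range. At 11 against 2 months 2 fibroblast markers were lower and 1 higher, and 1 endothelial marker each was higher and lower. Satellite cell markers had 2 of 4 lower at 11 months (186 to 204 at 11 months and 212 to 261 at 2 months) and 1 lower at 25 months against 2 months. Of the 14 brown fat, smooth muscle, Schwann cell and erythroid markers 0 were called by limma or by the one-way test with Tukey in any comparison; 3 had an unadjusted p under 0.05 in limma at 11 against 2 months, 2 at 25 against 11 months and 0 at 25 against 2 months. Of 4 macrophage markers 1 was higher at 11 and 1 at 25 against 2 months, but 0 at either age by the one-way test with Tukey. The part of these cells in the changes of Esrrb, Ppard and the listed genes was not tested.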

How the data were processed

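RNA from 18 gastrocnemius samples, 6 biological replicates per age by the labels, was depleted of ribosomal RNA and run on Affymetrix whole-transcript arrays. The authors deposited linear intensity, 1 value per array for each of 15300 probesets, made with RMA in Affymetrix Expression Console 1.2.1 and with the build mm8 per the submitters' processing notes; the series text names GeneSpring GX 14.9. How the 15300 probesets were selected is not given in the sources used here. Array medians lay between 97.6 and 101, and the number of arrays limits the precision.

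Log2 was taken first. Probesets were named from the platform annotation: 13592 had 1 symbol, 941 several and 767 none, and 13542 were matched by Entrez identifier to RefSeq, which changed 0 symbols. Limma 3.58.1 in R 4.3.3 fitted 1 mean per age over all 18 arrays and all probesets, with contrasts of the later minus the earlier age, Benjamini-Hochberg adjustment within a contrast and a threshold of 0.05. Single genes also had exact permutation tests in R, and covariation used 100000 permutations (Python 3.11.15, scipy 1.17.1).

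The regulators, the 7 related lists and the 10 marker lists were chosen with earlier results of these data known. The named genes were the regulators in every comparison and, from each related list and comparison, up to 3 called genes per direction with the smallest adjusted p. Mfn1, Pparg and single marker genes are named outside this rule. Some genes are also given at a comparison where the rule did not pick them. Genes with no probeset of their own symbol alone were not used. Promoter windows came from RefSeq (GRCm38.p6). Alternatives were other tests, normalizations, filters, weights, a replicate block, the array signal range, a stricter threshold and leaving out each array.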

Additional observations from a re-analysis of the deposited data

How the results depend on the processing

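The regulators, the genes named by the rule above and the counts of calls were recomputed under 30 alternatives per pair of ages. Genes named outside that rule, or at a pair of ages it did not pick, were not. Covariation was recomputed only with array signal range removed, after further quantile normalization and without 2 arrays. Among the 9 regulators, Esrrb kept its direction in all of the 30 alternatives, and none of the called values changed sign. The number of regulators called at 25 against 2 months, 2 as reported, was 1 with the methods' one-way test with Tukey, with the replicate block, with only the 2 ages compared, without the 3 arrays of narrowest signal range (2 months replicates 4 and 6 and 25 months replicate 5) and at a threshold of 0.01, each time through the loss of Ppard. It was 3 with array weights, where Ppara was added. With the signal range as a covariate it was again 2, with Ppara called and Ppard not. At 11 against 2 months it was 1 as reported, 2 after further quantile normalization and with array weights, and 0 with the signal range as a covariate. Over the 3 ages it was 1 as reported and 2 after further quantile normalization, without the dimmest 25% of probesets and with array weights. Leaving out 1 array at a time gave 1 to 2 at 11 against 2 months, 1 to 2 at 25 against 2 months and 1 to 2 over the 3 ages.

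Of all probesets, 23 were called at 25 against 11 months. The count was 461 with the one-way test with Tukey, 185 with array weights, 6 with the replicate block, 45 with only the 2 ages compared, 8 with 1 probeset per gene, 37 with the signal range as a covariate, 3 at a threshold of 0.01 and 3 to 33 on leaving out an array (12 or fewer without 2 months replicate 3, any 11-month array, or 25 months replicate 2, 3, 4 or 6), while 0 regulators were called in any of them. At 11 against 2 months 2919 probesets were called, 959 with the signal range as a covariate, 1555 without the 3 narrowest arrays, 1256 at 0.01 and 1895 (without 11 months replicate 5) to 3787 on leaving out an array. The 2666 calls at 25 against 2 months became 1419 at 0.01, and the 2936 over the 3 ages became 1754 without the 3 narrowest arrays and 1484 at 0.01. The Tukey count rests on another threshold, as its pairwise p is adjusted over the 3 age pairs and not over all probesets. The cause of the differences between settings was not tested. The labels do not state that replicate numbers pair the samples. Same-numbered samples of different ages had deviations that correlated at -0.33 to 0.42, over 0.1 in 7 of 18 pairs. Differently numbered samples were not compared, so these values cannot settle whether the numbers mark pairs. The replicate block gave 1 regulator in place of 2 at 25 against 2 months (Ppard, adjusted p = 0.0526) and left 1 at 11 against 2 months. The alternative of using the other probesets of a regulator gave no value, as each had 1. With 6 arrays an age, log2 changes of the uncalled regulators could have been as large as the intervals given; the widest reached 1.28-fold.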
